A study of Mus musculus with 11 samples.

Results

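The genes described here are 46 mouse genes of DNA replication and S-phase entry. They were chosen by name, with earlier results of these data known. All 46 were found among the 15113 genes of the count table and all 46 had enough counts to be tested, among 13025 tested genes. The libraries came from C2C12 cells, an established mouse myoblast line that fuses into myotubes when it differentiates. The labels give every sample as early stage myotubes at passages 2 to 5. The control group is named shRandom (n = 6) and the other group shDRP1 (n = 5), after a hairpin named Random and one against DRP1, a GTPase of the dynamin family needed for mitochondrial fission. How the hairpins were delivered, and whether the libraries of a group came from separate cultures or clones, is not stated in the labels used here, so the p-values measure only the spread between these libraries. Transcripts were counted by QuantSeq, which reads tags near the 3′ end. Levels are CPM, tag counts relative to the library total after TMM scaling, and fold changes are log2 ratios of shDRP1 over shRandom.

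Before a cell copies its DNA, the origin recognition complex, Cdc6 and Cdt1 load the MCM2-7 helicase onto origins. Cyclin E with its kinase, Cdc45 and the GINS complex then start the helicase, and polymerases, clamp and ligase build the new strands. Many of these genes are targets of E2F transcription factors, which pocket proteins such as Rb hold in check. Myoblasts that fuse leave the cell cycle for good, and replication genes are known to be turned down as they do so.

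In the shDRP1 libraries 36 of the 46 genes rose, 2 fell (Rrm2 and Pold2) and 8 did not pass the test (Benjamini-Hochberg adjusted p under 0.05 over all tested genes, edgeR's quasi-likelihood test). Over all 13025 tested genes, 33.9% were called higher and 33.3% lower by the same rule, and 32.9% did not pass. The median log2 fold change of the 46 genes was 0.66, with a range of -1.09 to 2.07, against a median of 0.03 over all tested genes. For 21 of the 46 every shDRP1 library lay above every shRandom library, a separation seen in 23.5% of all tested genes. None of the 46 had every shDRP1 library below every shRandom library, which held for 25.4% of all tested genes. A rise of at least 2-fold was called for 13 of the 46, against 11.2% of all tested genes, and a fall of at least 2-fold for Rrm2 alone, against 13.7%. By role, median log2 fold changes ran from 0.29 for polymerase alpha-primase and 0.34 for nucleotide supply to 1.19 for origin loading and 1.56 for S-phase entry.

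**Figure D1:**
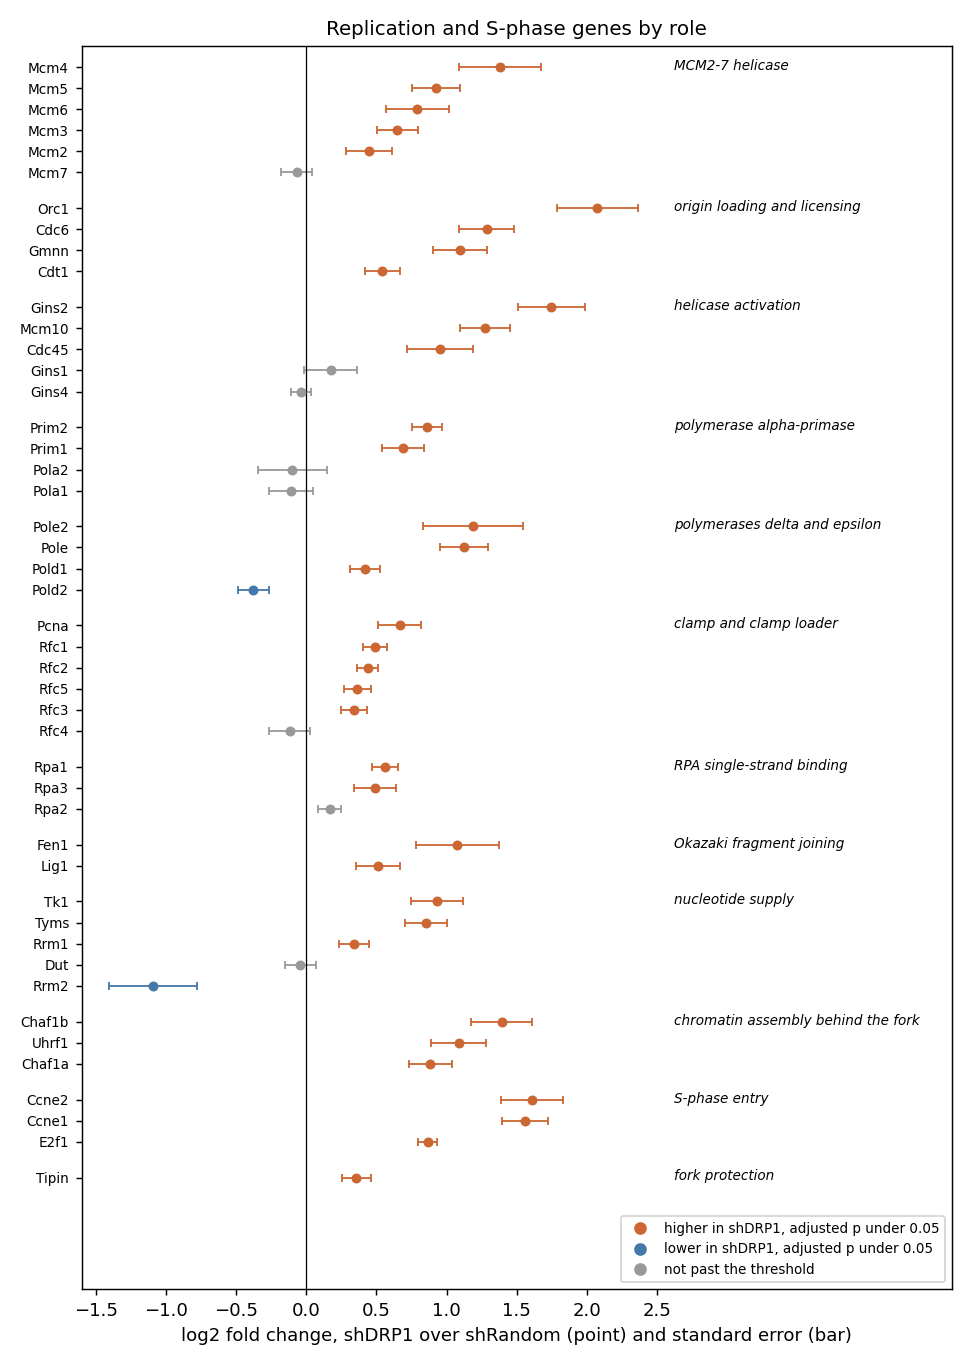
Log2 fold change, shDRP1 over shRandom, of each of the 46 genes, arranged by role. Points are edgeR estimates and bars their standard errors, with colour for the direction of genes past the threshold and grey for the rest. Orc1 lies farthest to the right at 2.07 and Rrm2 farthest to the left at -1.09.

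Total counts ran from 12277622 to 23082617 per library. Dnm1l, which encodes DRP1, stood at 78.6 ± 8.63 CPM in shRandom (SD, n = 6) and at 18.7 ± 2.58 CPM in shDRP1 (SD, n = 5), with no overlap (log2 fold change -2.07, SE 0.11, edgeR adjusted p = 2.72e-10). The shDRP1 libraries went against the label of early stage myotubes. All 18 myotube markers were lower in them, and the markers' summed level was 229.6 to 305.4 CPM against 15070 to 16800 CPM in shRandom. For this and the marker counts below, 33.3% of all tested genes were called lower and 33.9% higher. Of 12 listed myoblast markers 11 were in the table, and of these 2 were higher and 9 lower. Their sum was 2508 to 2756 CPM in shRandom and 876.5 to 1202 CPM in shDRP1. The 2 higher were Myf5 (means 6.05 and 13.6 CPM, log2 fold change 1.16, groups overlapping) and Id3 (44.0 and 160.8 CPM, 1.87, no overlap). Pax7 was among the lower ones, near 0 in shDRP1 at 0.061 CPM. Among the markers of other cells, 6 of the 7 fibroblast genes tested rose (summed level 6750 to 7371 against 14540 to 21650 CPM) and 4 of the 6 smooth muscle genes rose (3545 to 4192 against 8451 to 10200 CPM). Of 2 adipocyte markers tested 1 rose and 1 fell, and the sum of the list was 15.6 to 19.0 CPM in shRandom and 10.8 to 15.2 CPM in shDRP1. Of 3 macrophage markers tested Lyz2 rose (0.590 to 10.9 CPM), Csf1r fell and Cd68 did not pass the test, Itgam was at 0 in every shDRP1 library, and the list summed to 2.55 to 3.43 and 9.42 to 16.5 CPM. Endothelial markers summed to at most 1.29 CPM in any library. The part of these shifts in the replication results was not tested, and in bulk RNA fewer cells of a type cannot be told apart from less RNA per cell. Libraries also differed within groups: Gapdh, a glycolytic enzyme, ranged from 12.6 CPM (shRandom 4) to 78.9 CPM (shRandom 1) and from 19.8 CPM (shDRP1 5) to 90.3 CPM (shDRP1 2). Counts were therefore also given without these libraries, a choice made after their values were seen: without shRandom 1 and shDRP1 2 the test called 35 of the 46 higher and 2 lower, and without all 4 it called 31 higher and 3 lower. In the last count Mcm2, Lig1, Rpa3, Rrm1 and Tk1 were no longer called and Mcm7 was called lower.

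To show what the promoters of these genes share, windows from 250 bases before to 50 bases after a RefSeq transcription start (GRCm38.p6) were searched for 4 E2F motifs on both strands: TTTCGCGC, TTTGGCGC, TTTCCCGC and TTTGCCGC. A window was found for 36 of the 46 genes, with 42 windows in all. A gene with several windows counted as matched if any of them held a match. For such a gene the window with the most matches is printed. A match stood in 13 of the 36 (36.1%), against 459 of 9724 tested genes with a window (4.72%) and 704 of all 27025 genes of the table (2.6%). For comparison, the CHR element TTTGAA, a motif of genes expressed late in the cycle, stood in 4 of the 36 (11.1%) and in 14.2% of the tested genes. The 250 bases before the start are printed 5′ to 3′ on the gene's strand, with E2F motif matches in capitals, for 5 risen genes with a match there and for Rrm2, which fell and has none. They lie at chr4:108579204-108579453 (Orc1, plus strand), chr11:98907901-98908150 (Cdc6, plus), chr8:75109259-75109508 (Mcm5, plus), chr1:128359706-128359955 (Mcm6, minus), chr17:56304063-56304312 (Uhrf1, plus) and chr12:24708004-24708253 (Rrm2, plus).
Orc1: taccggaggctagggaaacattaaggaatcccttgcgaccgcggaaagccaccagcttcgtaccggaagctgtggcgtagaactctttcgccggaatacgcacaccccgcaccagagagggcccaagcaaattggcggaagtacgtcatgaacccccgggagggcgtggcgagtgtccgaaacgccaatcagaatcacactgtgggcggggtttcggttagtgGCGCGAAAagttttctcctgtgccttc
Cdc6: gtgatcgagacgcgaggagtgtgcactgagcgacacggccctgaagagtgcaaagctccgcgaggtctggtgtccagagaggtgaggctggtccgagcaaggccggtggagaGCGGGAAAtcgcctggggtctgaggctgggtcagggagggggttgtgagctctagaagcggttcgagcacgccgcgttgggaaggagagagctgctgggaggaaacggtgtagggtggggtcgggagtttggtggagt
Mcm5: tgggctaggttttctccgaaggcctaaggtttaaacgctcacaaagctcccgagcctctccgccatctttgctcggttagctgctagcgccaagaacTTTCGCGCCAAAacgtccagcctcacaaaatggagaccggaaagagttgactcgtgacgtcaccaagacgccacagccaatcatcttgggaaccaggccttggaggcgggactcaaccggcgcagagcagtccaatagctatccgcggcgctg
Mcm6: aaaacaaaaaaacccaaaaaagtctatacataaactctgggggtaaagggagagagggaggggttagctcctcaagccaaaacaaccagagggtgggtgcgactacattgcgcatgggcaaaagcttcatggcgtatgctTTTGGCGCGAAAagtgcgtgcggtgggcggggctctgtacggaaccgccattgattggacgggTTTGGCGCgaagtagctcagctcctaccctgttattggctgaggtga
Uhrf1: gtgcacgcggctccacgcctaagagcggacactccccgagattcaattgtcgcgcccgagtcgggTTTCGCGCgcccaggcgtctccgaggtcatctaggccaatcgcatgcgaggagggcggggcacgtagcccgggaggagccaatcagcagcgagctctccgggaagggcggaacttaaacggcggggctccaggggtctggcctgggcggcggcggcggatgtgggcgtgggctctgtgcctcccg
Rrm2: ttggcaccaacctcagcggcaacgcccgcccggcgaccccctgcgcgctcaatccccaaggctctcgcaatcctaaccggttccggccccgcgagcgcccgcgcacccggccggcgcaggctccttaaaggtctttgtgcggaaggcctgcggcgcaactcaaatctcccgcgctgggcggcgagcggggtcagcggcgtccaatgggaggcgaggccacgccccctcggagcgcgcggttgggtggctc

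The match in Orc1 began 27 bases before the RefSeq start and that in Cdc6 138 bases before it. GENCODE places Cdc6 at chr11:98907801-98923940 and Uhrf1 at chr17:56303321-56323486, so their printed stretches lie inside the annotated genes. Those of Orc1 and Rrm2 end inside theirs. In Mcm5 a pair of overlapping matches, one on each strand, began 153 and 149 bases before the start. Mcm6 held 3 matches in its window, 2 of them overlapping. Of the 13 genes with a match 11 rose and none fell, and of the 23 with a window but no match 17 rose and 2 fell, a difference that was not tested. Mcm7 and Pola1 held a match and did not pass the test. A match is a string of letters, not a measured binding site.

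Origin loading and licensing genes rose in 4 of 4 cases, with a median log2 fold change of 1.19. Orc1, the largest and cell-cycle-controlled subunit of the origin recognition complex (chr4:108579423-108614833, GENCODE annotation, GRCm38), stood at 0.316 to 0.877 CPM in shRandom (median 0.659) and at 3.07, 4.02, 1.49, 2.21 and 2.79 CPM in shDRP1 1 to 5. Every shDRP1 library was above every shRandom library, although these levels rest on 7 to 53 tags per library (log2 fold change 2.07, SE 0.29, edgeR adjusted p = 1.71e-05). Cdc6, the ATPase that joins ORC to load the helicase, stood at 2.32 to 4.55 CPM in shRandom (median 3.25) and at 10.03, 9.82, 6.39, 5.13 and 9.08 CPM in shDRP1. Its groups did not overlap either (log2 fold change 1.28, SE 0.20, edgeR adjusted p = 4.73e-05). Gmnn, the inhibitor that keeps Cdt1 from loading the helicase again, rose by 1.10 on the log2 scale with no overlap. Cdt1 itself rose less, by 0.54, and its lowest shDRP1 library (17.9 CPM) lay below its highest shRandom library (18.9 CPM).

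Of the 6 subunits of the MCM2-7 helicase ring 5 rose and Mcm7 did not pass the test, with a median of 0.72. Mcm5 (chr8:75109569-75128439) stood at 12.2 to 14.4 CPM in shRandom (median 13.0) and at 34.9, 30.2, 19.2, 15.5 and 25.1 CPM in shDRP1 1 to 5. It was the one subunit whose groups did not overlap (log2 fold change 0.92, SE 0.17, edgeR adjusted p = 0.000277). Mcm4 stood at 5.82 to 11.5 CPM in shRandom (median 7.64) and at 18.7, 39.7, 18.3, 10.4 and 16.2 CPM in shDRP1, so that shDRP1 2 was far above the rest and shDRP1 4 fell within the control range. Its estimate was 1.38 (SE 0.29, edgeR adjusted p = 0.000974). Mcm6 and Mcm3 rose by 0.79 and 0.65 with overlapping groups. Mcm2 rose by 0.45 (edgeR adjusted p = 0.0268), a call that was lost without shRandom 4 (adjusted p = 0.0517), shDRP1 1 (0.0659) or shDRP1 2 (0.0853). Mcm7, a subunit of the same ring, stood at 60.9 to 77.9 CPM in shRandom (median 74.9) and at 77.7, 67.2, 58.1, 56.2 and 89.4 CPM in shDRP1. The shDRP1 values fell on both sides of the controls, and the estimate was -0.07 (SE 0.11, edgeR adjusted p = 0.606), with a sign that turned under library totals alone and without shDRP1 4.

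Among the 5 genes that turn the loaded helicase on, 3 rose and the median was 0.95. Gins2, a GINS subunit (chr8:120578633-120589304), stood at 4.14 to 9.23 CPM in shRandom (median 5.92) and at 24.4, 33.0, 19.2, 14.0 and 17.0 CPM in shDRP1 1 to 5. All shDRP1 libraries were higher (log2 fold change 1.75, SE 0.24, edgeR adjusted p = 2.1e-05). Its 3′ end overlaps Gse1 on the other strand, which rose by 0.75, and the strand setting of the counting was not stated in the labels. The other GINS subunits did not pass the test: Gins1 gave 0.17 (SE 0.19), Gins4 -0.04 (SE 0.07) and Gins3, which is not among the 46, -0.05 (SE 0.14), with edgeR adjusted p-values of 0.425, 0.676 and 0.777. The Gins4 estimate changed sign under library totals alone and without shDRP1 4. Mcm10, which helps the assembled helicase begin to unwind, stood at 2.49 to 3.99 CPM in shRandom (median 2.86) and at 8.004, 8.51, 4.74, 6.31 and 9.02 CPM in shDRP1. The groups did not overlap (log2 fold change 1.27, SE 0.18, edgeR adjusted p = 1.84e-05). Cdc45, the partner of MCM2-7 and GINS in the active helicase, rose by 0.95 with overlapping groups.

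**Figure D2:**
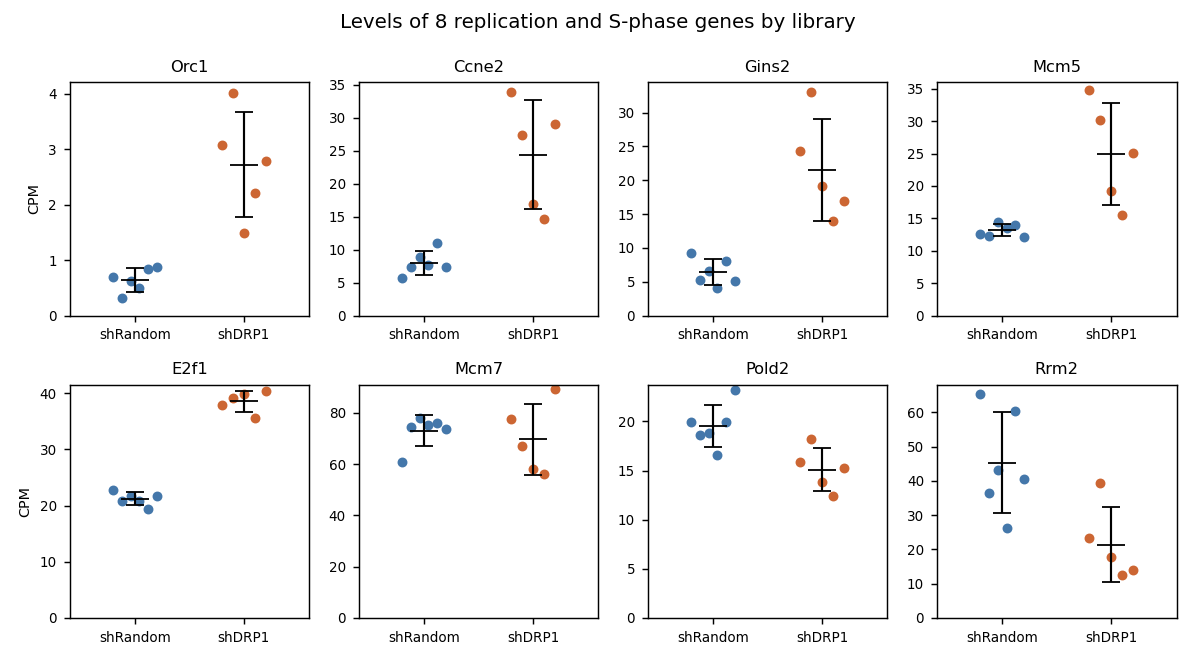
Level in CPM of 8 genes in each of the 6 shRandom and 5 shDRP1 libraries, with the mean and SD of each group. Orc1, Ccne2, Gins2, Mcm5 and E2f1 separate the groups, while Mcm7, Pold2 and Rrm2 overlap.

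The polymerases did not move as one. In polymerase alpha-primase, which lays the RNA-DNA primers, both primase subunits rose and both polymerase subunits did not pass the test. Prim2 stood at 8.61 to 11.6 CPM in shRandom (median 9.67) and at 17.98, 21.2, 19.7, 15.5 and 16.5 CPM in shDRP1 1 to 5, without overlap (log2 fold change 0.86, SE 0.11, edgeR adjusted p = 4.73e-06). Prim1 stood at 8.57 to 12.7 CPM (median 10.4) and at 17.3, 20.03, 14.0, 12.5 and 21.4 CPM, with shDRP1 4 just under the highest control (0.69, SE 0.15, edgeR adjusted p = 0.000839). Pola1 gave -0.11 (SE 0.16) and Pola2 -0.10 (SE 0.25), with edgeR adjusted p-values of 0.564 and 0.733. The Pola2 sign turned without shRandom 1, shDRP1 4 or shDRP1 5.

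Polymerase epsilon, the leading strand enzyme, rose in both of its listed subunits. Pole, its catalytic subunit, stood at 2.48 to 4.97 CPM in shRandom (median 3.66) and at 7.83, 10.1, 6.70, 6.31 and 9.60 CPM in shDRP1, without overlap (log2 fold change 1.13, SE 0.17, edgeR adjusted p = 3.79e-05). Pole2 rose by 1.19 with overlapping groups (SE 0.35, edgeR adjusted p = 0.0091). In polymerase delta, which copies the lagging strand, the catalytic subunit and its partner went opposite ways. Pold1 stood at 5.83 to 7.07 CPM in shRandom (median 6.70) and at 8.93, 10.8, 7.62, 8.05 and 8.78 CPM in shDRP1, all above the controls (0.42, SE 0.11, edgeR adjusted p = 0.00339). Pold2 (chr11:5872180-5878292) stood at 16.6 to 23.2 CPM (median 19.4) and at 15.8, 18.2, 13.8, 12.4 and 15.2 CPM. It fell by 0.38 on the log2 scale (SE 0.11, edgeR adjusted p = 0.00682), and shDRP1 2 alone stood inside the control range.

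The sliding clamp and 4 of the 5 subunits of the loader that opens it rose, by modest amounts with a median of 0.40. Rfc2 stood at 25.2 to 31.7 CPM in shRandom (median 26.2) and at 36.6, 35.5, 35.7, 34.3 and 41.0 CPM in shDRP1 1 to 5, with no overlap (log2 fold change 0.44, SE 0.08, edgeR adjusted p = 0.000134). Rfc1, the large subunit, stood at 109.5 to 148.1 CPM (median 128.3) and at 203.5, 168.3, 156.0, 177.3 and 204.2 CPM, again with no overlap (0.49, SE 0.09, edgeR adjusted p = 0.000169). Pcna, the clamp, rose by 0.67, also with no overlap, though its 2 named pseudogenes may share tags with it. Rfc3 and Rfc5 rose by 0.34 and 0.36. Rfc4 gave -0.12 (SE 0.15, edgeR adjusted p = 0.495), with a sign that turned without shDRP1 4. It overlaps Eif4a2 in the annotation.

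RPA, which coats the unwound single strand, rose in 2 of its 3 subunits. Rpa1 stood at 40.3 to 50.7 CPM in shRandom (median 45.5) and at 75.1, 76.6, 64.7, 52.2 and 67.1 CPM in shDRP1, just clear of the controls (log2 fold change 0.56, SE 0.09, edgeR adjusted p = 9.46e-05). Rpa3 rose by 0.49, on 31 to 59 tags per library. Rpa2 gave 0.17 (SE 0.08) and did not pass the test (edgeR adjusted p = 0.0819), but passed without shDRP1 4 (0.0177), under library totals alone (0.00847) and with the stricter filter on low counts (0.0422). Both enzymes that join Okazaki fragments rose. Fen1, the flap nuclease, stood at 2.93 to 8.78 CPM in shRandom (median 6.53) and at 13.6, 22.7, 13.1, 8.48 and 9.31 CPM in shDRP1, with shDRP1 4 below the highest control (1.08, SE 0.29, edgeR adjusted p = 0.00565). Lig1, the replicative ligase, rose by 0.51 with overlapping groups (edgeR adjusted p = 0.0107).

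Genes that supply deoxynucleotides split. Tyms, the thymidylate synthase, stood at 12.9 to 17.2 CPM in shRandom (median 15.4) and at 29.8, 37.5, 24.6, 18.5 and 26.1 CPM in shDRP1 1 to 5, without overlap (log2 fold change 0.85, SE 0.15, edgeR adjusted p = 0.00014). Tk1, the thymidine kinase of the salvage route, stood at 23.5 to 33.5 CPM (median 27.6) and at 69.8, 67.9, 39.0, 32.8 and 61.0 CPM, with shDRP1 4 just inside the control range (0.93, SE 0.19, edgeR adjusted p = 0.000582). Rrm1, the large subunit of ribonucleotide reductase, rose by 0.34 (SE 0.11, edgeR adjusted p = 0.0126).

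Rrm2, the small subunit of the same enzyme (chr12:24708241-24714146), fell. It stood at 65.4, 36.3, 43.0, 26.3, 60.3 and 40.7 CPM in shRandom 1 to 6 and at 23.3, 39.3, 17.9, 12.5 and 14.1 CPM in shDRP1 1 to 5. The groups overlapped through shDRP1 2, which was above shRandom 2 and shRandom 4. The log2 fold change was -1.09 (SE 0.31, edgeR adjusted p = 0.00815), and Rrm2 was called lower in each of the 20 alternative analyses, at -1.43 to -0.95. Within each group Rrm2 was high and low in nearly the same libraries as Gapdh, highest in shRandom 1 and shDRP1 2, and lowest in shRandom 4 and in shDRP1 4, next to shDRP1 5. Rrm2 was not alone in this: the same libraries were highest and lowest for Fen1, which rose, and for Pola2, which did not pass the test. The part of the order shared with Gapdh in the fall of Rrm2 was not tested. Dut, which removes dUTP, gave -0.04 (SE 0.11, edgeR adjusted p = 0.75), with a sign that turned under library totals alone and without shDRP1 4.

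All 3 genes of chromatin assembly behind the fork rose without overlap, with a median of 1.09. Chaf1b, a subunit of the histone chaperone CAF-1, stood at 1.71 to 3.80 CPM in shRandom (median 3.47) and at 9.40, 8.89, 7.52, 4.95 and 10.6 CPM in shDRP1 (log2 fold change 1.39, SE 0.22, edgeR adjusted p = 5.11e-05). The lowest shDRP1 library, shDRP1 4, was still above all controls. Chaf1a, the large CAF-1 subunit, rose by 0.88, and Uhrf1, which guides maintenance DNA methylation to new strands, by 1.09. Tipin, a fork protection factor, stood at 16.8 to 22.0 CPM in shRandom (median 19.7) and at 27.6, 30.1, 24.7, 21.0 and 22.6 CPM in shDRP1, overlapping in shDRP1 4 alone (0.36, SE 0.10, edgeR adjusted p = 0.00658).

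The 3 listed genes of S-phase entry rose without overlap and had the highest median, 1.56. E2f1, an activating E2F (chr2:154559407-154569892), stood at 19.4 to 22.9 CPM in shRandom (median 21.2) and at 38.0, 39.2, 39.8, 35.7 and 40.4 CPM in shDRP1 1 to 5. Both groups were tight, with coefficients of variation of 5.54% and 4.89% (log2 fold change 0.86, SE 0.07, edgeR adjusted p = 2.29e-08). Ccne1 and Ccne2, the E-type cyclins that start S phase with Cdk2, rose by 1.56 and 1.61 (edgeR adjusted p = 1.16e-06 and 1.97e-05).

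The spread between shDRP1 libraries was wide and mostly in step. The sum of the 46 genes was 955.5 to 1092 CPM in shRandom and 1584, 1598, 1208, 1089 and 1460 CPM in shDRP1 1 to 5, so the sum in shDRP1 4 lay within the control range. Rrm2, the gene with the largest fall, was also left out after its values were seen, a choice that by itself widens the gap between the groups. Without it the sum was 907.7 to 1031 CPM in shRandom and 1076 CPM in shDRP1 4, above every control. Against the shRandom mean, the median gene stood at 0.78, 0.90, 0.45, 0.24 and 0.57 on the log2 scale in shDRP1 1 to 5, and at -0.18 to 0.16 in the shRandom libraries. shDRP1 2 was the highest of its group for 25 of the 46 genes and shDRP1 4 the lowest for 38. In shDRP1 4, 22 of the 46 genes were above every shRandom library and 6 were below every one. In shDRP1 1, 2, 3 and 5 the counts were 40, 38, 34 and 36 above and 2, 0, 4 and 2 below. The share of all tested genes that does so in a single library was not computed. The median coefficient of variation over the genes was 14.25% in shRandom and 22.45% in shDRP1. It reached 54.0% for Mcm4 in shDRP1, and Pole2 varied by 48.5% and 48.6% in the respective groups.

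**Figure D3:**
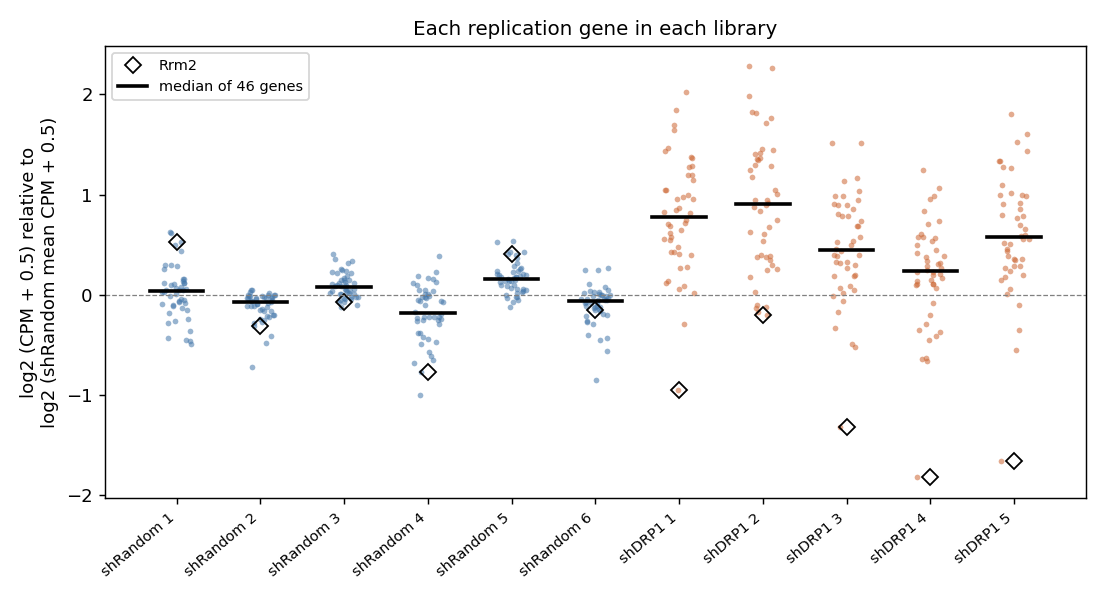
Level of each of the 46 genes in each library on a log2 scale relative to its shRandom mean (CPM plus 0.5), with black lines at the medians and open diamonds for Rrm2. Medians run from -0.18 to 0.16 in shRandom and from 0.24 to 0.90 in shDRP1, and Rrm2 lies below 0 in all shDRP1 libraries.

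Other genes of the pathway were taken from further lists, which were chosen with earlier results of these data known. Of 39 further replication genes 21 rose (53.8%) and 7 fell (17.9%), against 33.9% and 33.3% of all tested genes, with a median of 0.34. Wdhd1, which couples helicase and polymerase alpha, rose by 1.11 (SE 0.13, edgeR adjusted p = 3.25e-06), and Donson, a factor in helicase assembly, by 1.03 (SE 0.14, edgeR adjusted p = 1.02e-05). Rnaseh2a, the catalytic subunit of RNase H2, fell from 61.7 ± 3.90 to 25.6 ± 1.75 CPM (SD, n = 6 and 5; log2 fold change -1.27, edgeR adjusted p = 5.57e-10), and Pold4, the small subunit of polymerase delta, fell by 0.89 on the log2 scale. The other subunits of the origin recognition complex were named after their values were seen. Orc5 rose by 0.50 without overlap, as Orc1 did, Orc6 fell by 0.70, and Orc2, Orc3 and Orc4 gave -0.15, -0.03 and -0.11 without passing the test.

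Some of these genes lie in a stretch of chromosome 8 that was lower as a whole. On chromosome 8 the median log2 fold change of tested genes in 5-Mb bins was -0.86, -1.12, -1.37, -1.02 and -0.88 from 75 to 100 Mb, and -0.02 and -0.17 in the bins on either side. Rnaseh2a (chr8:84956610-84969767), Orc6 (chr8:85299632-85308278) and the pocket protein gene Rbl2 (chr8:91070057-91123844) lie in the lowered stretch and fell, and the part of the stretch in their change was not tested. Asf1b, a histone chaperone gene, and Gins3, both of the same replication list, also lie there and gave -0.10 and -0.05 without passing the test (edgeR adjusted p = 0.698 and 0.777). Mcm5 lies at its edge and rose by 0.92, while its 5 tested neighbours within 2 Mb had a median of -0.28. Gins2 and Cdt1 lie outside it, among neighbours with medians of 0.31 and 0.21, and Gins4 among neighbours with a median of -0.03.

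Of 25 further nucleotide supply genes 10 rose and 9 fell, with a median of -0.02. By the same rule 33.9% of all tested genes were called higher and 33.3% lower, so these counts lie near the background. Samhd1, which breaks down deoxynucleotide triphosphates, rose from 33.5 ± 1.73 to 97.2 ± 2.05 CPM (SD, n = 6 and 5; log2 fold change 1.54, SE 0.05, edgeR adjusted p = 4.75e-12), with no overlap. Ctps2, a CTP synthase, rose by 0.71 and Impdh1, of guanine nucleotide synthesis, fell by 0.63. Rrm2b, the small reductase subunit used outside S phase, fell as Rrm2 did, from 20.4 ± 2.05 to 10.6 ± 2.10 CPM (SD, n = 6 and 5; -0.93, SE 0.13, edgeR adjusted p = 1.13e-05). Both small subunits of ribonucleotide reductase were thus lower while Rrm1 was higher.

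Upstream, 14 of 34 E2F, pocket protein and G1/S regulators rose (41.2%) and 11 fell (32.4%), with a median of 0.22. Over all tested genes 33.9% were called higher and 33.3% lower, so these shares lie near the background. E2f2, another activating E2F, fell from 433.7 ± 49.3 to 7.45 ± 1.57 CPM (SD, n = 6 and 5; log2 fold change -5.87, SE 0.14, edgeR adjusted p = 1.21e-13), opposite to E2f1. Cdkn1c, the p57 inhibitor of cyclin-dependent kinases, stood at 34.3 to 43.0 CPM in shRandom and at 0 to 0.174 CPM in shDRP1. Of the 3 D-type cyclins 2 rose and 1 fell. Ccnd2 rose from 405.6 ± 39.8 to 696.6 ± 71.8 CPM (SD, n = 6 and 5; log2 fold change 0.78, edgeR adjusted p = 1.03e-06). Ccnd1 rose from 99.7 ± 16.04 to 216.7 ± 19.1 CPM and Ccnd3 fell from 811.2 ± 68.4 to 264.8 ± 15.3 CPM (SD, n = 6 and 5), with edgeR adjusted p-values of 2.4e-07 and 5.11e-11. Skp2, of the ubiquitin ligase that removes p27, rose from 10.4 ± 1.222 to 24.2 ± 2.01 CPM (SD, n = 6 and 5; 1.221, SE 0.09, edgeR adjusted p = 3.03e-08).

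Inhibitors of S-phase entry went both ways, and these were named after their values were seen, as were Ccnd2 and Ccnd3. Cdkn1a, the p21 inhibitor, fell from 3974 ± 294.5 to 1100 ± 237.8 CPM (SD, n = 6 and 5; log2 fold change -1.85, SE 0.12, edgeR adjusted p = 6.79e-09). Cdkn2c, the p18 inhibitor, fell by 0.60 on the log2 scale without overlap. Cdkn1b, the p27 inhibitor, rose by 0.39 with overlapping groups (SE 0.16, edgeR adjusted p = 0.0483), and Cdkn2d gave -0.02 without passing the test. Rb1 and Rbl2, both pocket proteins, fell by 0.60 and 1.02 on the log2 scale without overlap, while Rbl1 rose by 0.69. The repressor E2fs split, as E2f8 fell by 1.504 and E2f7 rose by 0.94, both with overlapping groups.

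**Figure D4:**
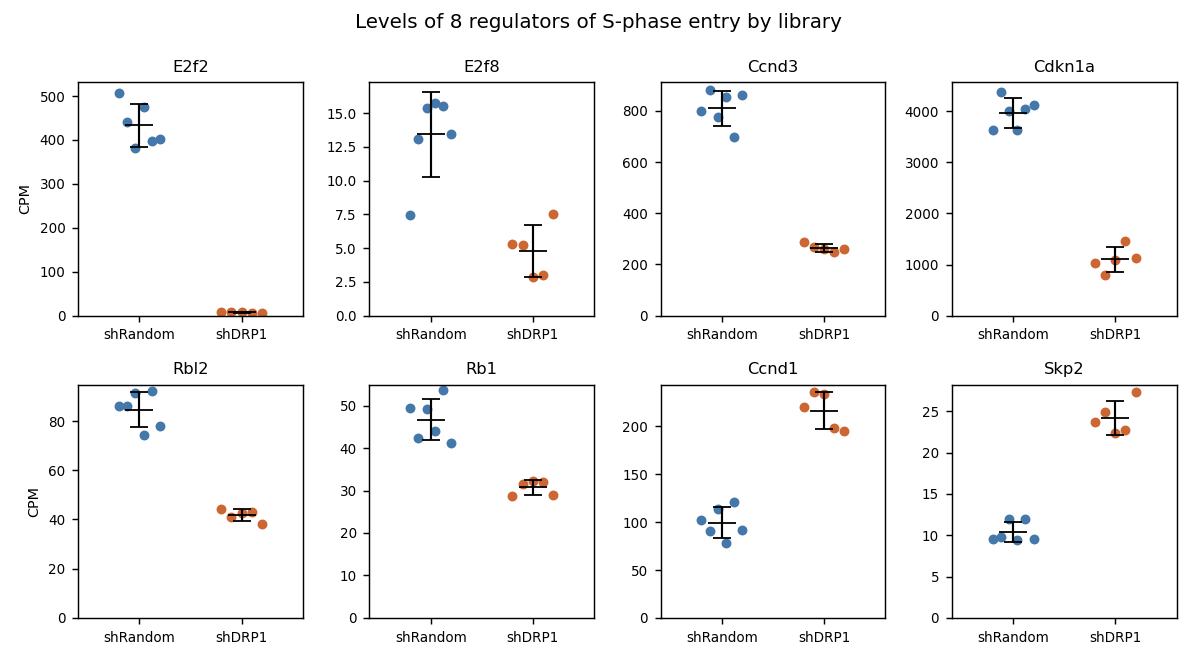
Level in CPM of 8 regulators of S-phase entry in each of the 6 shRandom and 5 shDRP1 libraries, with the mean and SD of each group. E2f2, Ccnd3, Cdkn1a, Rbl2 and Rb1 lie lower in all shDRP1 libraries, Ccnd1 and Skp2 higher, and E2f8 overlaps.

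Genes of mitosis and cytokinesis, which act after S phase, mostly did not pass the test: 14 of 47 rose, 1 fell and 32 were not called, with a median of 0.29. By share 29.8% rose and 2.13% fell, against 33.9% and 33.3% of all tested genes. Without shDRP1 2 the counts were 8 and 2, and without shRandom 1, shRandom 4, shDRP1 2 and shDRP1 5 they were 4 and 6. Smc2 and Ncaph, subunits of condensin, rose by 1.21 and 1.33 without overlap, and Cdc25b, a phosphatase that activates Cdk1, fell by 0.87. Mki67 and Top2a, common proliferation markers named after their values were seen, gave 0.40 and 0.19 with edgeR adjusted p-values of 0.147 and 0.416. The summed level of the 47 genes was 1883 to 2427 CPM in shRandom and 1834 to 2980 CPM in shDRP1. Whether replication genes and mitotic genes differ in their response was not tested.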

How the data were processed

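Total RNA of 11 C2C12 libraries was measured by 3′ tag sequencing (QuantSeq). The raw table holds counts of tags per gene, deposited by the authors. The second table holds the same counts divided by 1 size factor per library, a normalized signal deposited by the authors (factors 0.786 to 1.34), and was used only for this check. Builds GRCm38 and mm10 and DESeq2 1.22.2 are named per the submitters' processing notes. No source used here names the aligner, the counter or the strand setting, and the labels state 50 and 75 bp reads in different places. Of the 15113 gene IDs, 15080 matched a symbol. Samples were grouped by their titles.

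Counts were tested with edgeR 4.0.16 in R 4.3.3 (filterByExpr by group, TMM, robust quasi-likelihood fit, no covariate), adjusted by Benjamini-Hochberg over 13025 genes at 0.05. The procedure was tested on simulated data with 50 genes changed at each of 1.25, 1.5, 2 and 4-fold. It called 16%, 60%, 92% and 100% of them, so small changes were often missed. Far fewer genes were changed there than were called in these data. Within groups libraries differed by more than sampling noise (chi-square per degree of freedom 5.3 to 61.6), so none was taken for a repeat deposit. Alternatives were DESeq2 1.42.0, limma-voom 3.58.1, other scalings and filters, the replicate number as a block, and leaving out each library. Leaving out the libraries at the ends of the Gapdh range was added after seeing the data. The members and lists were chosen with earlier results of these data known. The range and median over the 6 shRandom libraries and the value in each shDRP1 library are given, by rule, for the 2 genes of smallest adjusted p in each role of 4 or more genes, for 1 in smaller roles, and for every gene called lower. Mcm7 was added to these after its values were seen. Of each further list, the rule named the 2 genes of smallest adjusted p per direction. Promoter windows come from RefSeq (GRCm38.p6). Annotated gene overlaps touch 13 of the 46 genes, and Pcna and Tyms have named pseudogenes, so tags may be shared there.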

Additional observations from a re-analysis of the deposited data

Results flagged for a closer look

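In 5 of 92 groups (46 genes in each group of libraries) one library stood apart from the rest by Dixon's criterion, which chance alone meets in about 1 in 20 groups. Mcm4 was at 39.7 CPM in shDRP1 2, against 10.4 to 18.7 CPM in the other shDRP1 libraries. Mcm7 was at 60.9 CPM in shRandom 1, against 73.8 to 77.9 CPM in the other controls. Both of the following GINS genes were low in shDRP1 4: Gins1 at 1.98 CPM, against 3.08 to 3.40 CPM, and Gins4 at 21.0 CPM, against 25.5 to 26.8 CPM. Rfc2 was at 31.7 CPM in shRandom 4, against 25.2 to 27.0 CPM in the other controls.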

How the results depend on the processing

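Of the 38 genes called, 33 were called in each of the 20 alternatives that tested them. Members called higher numbered 35 to 37 when each library was left out, and 25 (stricter filter, with fewer members tested) to 37 otherwise. Their median was 0.47 to 0.76 over all alternatives. The sign reversed, with no call, for Mcm7 (0.0299), Gins4 (0.0631) and Dut (0.059) under library totals alone. It reversed without shDRP1 4 for all 5 of Mcm7, Gins4, Pola2, Rfc4 and Dut, and for Pola2 also without shRandom 1 or shDRP1 5. Leaving out each library gave -0.1732 to 0.0018 for Mcm7, -0.0631 to 0.0239 for Gins4, -0.2416 to 0.0676 for Pola2, -0.1778 to 0.0083 for Rfc4 and -0.1347 to 0.0425 for Dut. The cause was not tested. The 21 further replication genes called higher became 11 under the stricter filter, which tests fewer genes. Mitotic genes called higher and lower were 8 to 21 and 1 to 2 when each library was left out, 7 and 2 without shRandom 1 and shDRP1 2, and 4 and 6 without shRandom 1, shRandom 4, shDRP1 2 and shDRP1 5. Without these 4 libraries Rpa3 (edgeR adjusted p = 0.0904), Lig1 (0.173), Rrm1 (0.196), Tk1 (0.0515) and Mcm2 (0.197) were not called, and Mcm7 was called lower (-0.24, 0.0401). With limma-voom Mcm2 was not called (adjusted p = 0.052).

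No pairing by replicate number was seen. Same-numbered libraries correlated at -0.098, -0.115, -0.176, 0.357 and -0.164 in their deviations, and none correlated best with its own number. These correlations cannot decide whether libraries shared a batch, because the libraries also differed widely within groups. With the number as a block 35 members were called higher and 2 lower, with a median of 0.62, and 3934 and 4003 of all genes. Lig1 was not called there (edgeR adjusted p = 0.0649). Orc1, Rpa3, Gins1 and Pole2 had the fewest tags in all, 297, 490, 545 and 585 over the 11 libraries, so their relative counting error is the largest among the 46 genes.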

Other observations

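Genes of purine synthesis went both ways, and these were named after their values were seen. Adsl, Atic, Gart and Gmps, enzymes of the pathway to AMP and GMP, fell by 0.60, 0.38, 0.36 and 0.46 on the log2 scale without overlap between the groups. Pfas and Ppat, enzymes of the same pathway, rose by 0.65 and 0.34, also without overlap. Impdh2 fell by 0.35 without overlap and Adss by 0.20 with overlapping groups. Paics gave 0.20 without passing the test (edgeR adjusted p = 0.527). Of all tested genes, 23.5% had every shDRP1 library above every shRandom library and 25.4% had every one below. Dck, which phosphorylates salvaged deoxycytidine, rose from 3.49 ± 1.301 to 10.1 ± 3.83 CPM (SD, n = 6 and 5; log2 fold change 1.53, edgeR adjusted p = 0.000241).

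Among regulators of origin firing, Cdc7, the kinase that triggers the loaded helicase, rose from 1.28 ± 0.490 to 3.79 ± 0.704 CPM (SD, n = 6 and 5; log2 fold change 1.57, edgeR adjusted p = 3.04e-05). Its activator Dbf4 rose by 0.37 with overlapping groups. Ticrr and Topbp1, of the same replication list, gave 0.40 and 0.29 without passing the test (edgeR adjusted p = 0.216 and 0.122). All genes of this paragraph were named after their values were seen. Dtl, which directs Cdt1 to degradation, rose from 5.24 ± 1.33 to 16.3 ± 5.44 CPM (SD, n = 6 and 5; 1.64, edgeR adjusted p = 1.81e-05). Tfdp2, a partner of the E2F proteins, fell by 0.65 without overlap (SE 0.10, edgeR adjusted p = 2.8e-05). Tfdp1, another such partner, fell by 0.57 with overlapping groups (SE 0.23, edgeR adjusted p = 0.041). Its levels were low, at 1.13 to 3.03 CPM over all libraries. Top1, the topoisomerase that relaxes DNA ahead of the fork, fell by 0.52 without overlap.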
